A study of Mus musculus with 6 samples.

Results

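The FOXO transcription factors were followed in mouse acute lymphoblastic leukaemia driven by BCR-ABL1, either lacking or carrying activation-induced cytidine deaminase (AID), which mutates immunoglobulin genes in activated B cells. All probe sets annotated to exactly 1 of the 4 symbols Foxo1, Foxo3, Foxo4 and Foxo6 were taken as members. This gave 9 of 45037 probe sets, of which 4 read Foxo1, 3 read Foxo3 and 2 read Foxo4, while Foxo6 was not analysed here. Each probe set was measured on 3 arrays of AID-/- leukaemia and 3 arrays of AID+/+ leukaemia, all labelled Balb/c, and leukaemias of both genotypes are described by the series as driven by BCR-ABL1. Replicates are called biological in the titles, yet whether each leukaemia arose in its own mouse is not stated, and the p-values then cover only the spread among these samples.

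FOXO proteins are forkhead transcription factors held in check by the PI3K-AKT pathway. AKT and the related kinase SGK1 phosphorylate them, 14-3-3 proteins then hold them in the cytoplasm, and loss of the kinase signal lets them enter the nucleus and activate genes of cell cycle arrest, cell death, stress resistance and metabolism. In developing B cells FOXO1 is known to activate the recombinase genes Rag1 and Rag2 and the interleukin-7 receptor gene, and BCR-ABL1 is known to signal through PI3K and AKT. The arrays read transcripts, and neither the phosphorylation nor the location of FOXO proteins was measured.

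Values are RMA expression on the log2 scale, so that a difference of 1 is a 2-fold change, and array medians lay between 4.85 and 4.90. The B-lineage identity of the samples was checked with 9 measured marker genes, all of which lay above the array median on every array. Their mean was 11.57 to 11.79 in AID-/- and 11.46 to 11.67 in AID+/+ leukaemia, and limma called 0 of them different, with 1 at an unadjusted p under 0.05. Of the markers of other cells, 3 of 8 for T and NK cells, 6 of 9 for myeloid cells, 4 of 6 for erythroid cells and 5 of 6 for stromal and endothelial cells lay below the median on every array, while 4, 2, 2 and 1 of them lay above it on every array. Of all these markers 1, the myeloid gene Lyz2, was higher in AID-/- leukaemia, by 0.76 (SE 0.21). The 9 myeloid markers summed to 198 to 225 on the linear scale on AID-/- arrays and 181 to 216 on AID+/+ arrays. The part of other cells in the results was not tested, and in such bulk samples fewer cells of a type and less RNA per cell cannot be told apart. Sex-linked transcripts split with genotype: Xist, which silences an X chromosome in female cells, averaged 5.30 in AID-/- and 12.01 in AID+/+ leukaemia, and the Y-linked gene Kdm5d 7.66 and 2.58, so genotype and sex cannot be told apart in any comparison.

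The FOXO genes did not move together. Foxo1 was about 2-fold higher in AID-/- leukaemia, Foxo4 was lower, and Foxo3 did not pass the test. At the level of probe sets 3 were higher, 1 was lower and 5 did not pass limma at an adjusted p under 0.05, where 14.6% of all probe sets were called, 7.24% as higher and 7.39% as lower. Groups did not overlap at 5 of the 9, where 32.9% of all probe sets showed no overlap.

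**Figure D1:**
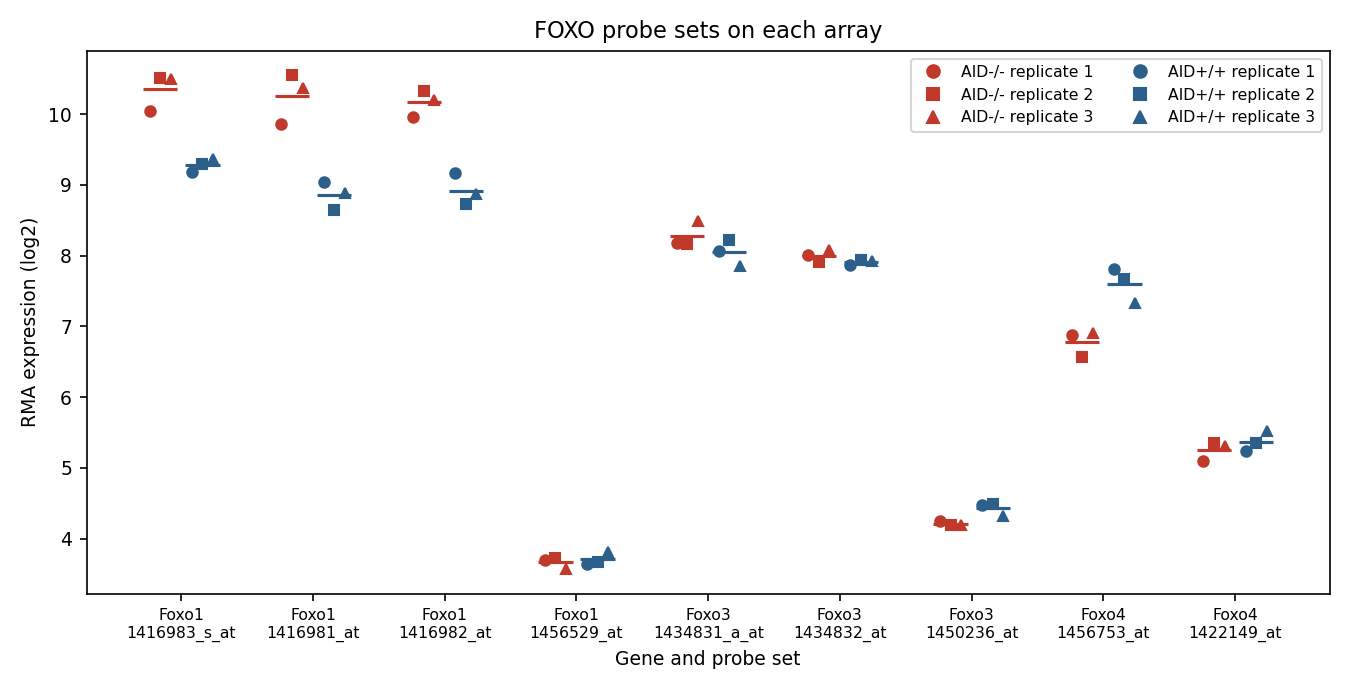
RMA expression (log2) of the 9 FOXO probe sets on each of the 6 arrays, with AID-/- arrays in red, AID+/+ arrays in blue, a marker shape for each replicate number and a bar at each group mean. The red points lie above all blue points at 3 Foxo1 probe sets and below them at Foxo4 1456753_at and Foxo3 1450236_at.

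Foxo1, the family member with the best known role in B-cell development, was read by 3 probe sets designed on the same expressed sequence, which are therefore not independent readings. At 1416983_s_at the AID-/- arrays stood at 10.04, 10.52 and 10.49 and the AID+/+ arrays at 9.18, 9.30 and 9.37. The lowest AID-/- array lay above the highest AID+/+ array, and the difference was 1.07 (SE 0.14, adjusted p = 0.00177), or 2.09-fold. At 1416981_at the values were 9.86, 10.55 and 10.37 against 9.04, 8.65 and 8.89, a difference of 1.40 (SE 0.18, adjusted p = 0.00174). At 1416982_at they were 9.96, 10.33 and 10.21 against 9.17, 8.73 and 8.87, a difference of 1.25 (SE 0.14, adjusted p = 8.72e-04). AID-/- replicate 1 was the lowest array of its group at each of these 3 probe sets, and without it the difference at 1416983_s_at was 1.22. The calls remained in every fit that left out 1 array, with adjusted p up to 0.0113. An ordinary linear model without variance moderation kept 1416982_at (adjusted p = 0.0435) and lost the calls at 1416981_at and 1416983_s_at (adjusted p = 0.0606 and 0.0522).

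The fourth Foxo1 probe set, 1456529_at, comes from another expressed sequence and showed no such difference. It read 3.69, 3.72 and 3.57 in AID-/- and 3.64, 3.67 and 3.81 in AID+/+ leukaemia, values below every array median and overlapping between groups. Its difference was -0.046 (SE 0.09), and the 95% interval of -0.26 to 0.17 lies below the interval of 0.74 to 1.39 at 1416983_s_at. What this probe set reads of the Foxo1 transcript was not tested.

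Promoter sequences of Foxo1 and Foxo3 are given because these are the members held in the promoter table of RefSeq (assembly GRCm38.p6) used here, one called higher and the other not called. Each is the 250 bases before the annotated start, 5′ to 3′ on the gene's own strand, at chr3:52268087-52268336 (plus strand) for Foxo1 and chr10:42276696-42276945 (minus strand) for Foxo3. Capitals would mark the core forkhead motif GTAAACA or the insulin response core CAAAACA, searched on both strands.
Foxo1: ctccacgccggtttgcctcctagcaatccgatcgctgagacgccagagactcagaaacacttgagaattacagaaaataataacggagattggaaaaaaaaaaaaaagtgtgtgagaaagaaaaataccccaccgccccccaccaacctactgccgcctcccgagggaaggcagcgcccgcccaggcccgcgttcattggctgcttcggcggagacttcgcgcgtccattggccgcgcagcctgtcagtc
Foxo3: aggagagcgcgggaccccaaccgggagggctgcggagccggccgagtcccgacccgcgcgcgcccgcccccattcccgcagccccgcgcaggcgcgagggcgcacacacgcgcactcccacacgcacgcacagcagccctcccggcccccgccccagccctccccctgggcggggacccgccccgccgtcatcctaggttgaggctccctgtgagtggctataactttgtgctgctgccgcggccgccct
Neither window holds either motif, which occur in 3.17% and 5.56% of 32851 promoter windows of this length, so both sequences stand in lower case. Matches of the pair of motifs did not overlap in any window printed. The Foxo1 window has 56% G and C bases and the Foxo3 window 76.4%. The absence of a match says only that these letters are not in the window.

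Foxo3, which shares many targets with Foxo1 and is widely expressed, did not pass at any of its 3 probe sets. At 1434831_a_at the AID-/- arrays read 8.17, 8.17 and 8.49 and the AID+/+ arrays 8.07, 8.22 and 7.85. The groups overlapped, and the difference was 0.23 (SE 0.13, adjusted p = 0.322) with a 95% interval of -0.076 to 0.53. At 1434832_at the values were 8.01, 7.92 and 8.08 against 7.86, 7.95 and 7.92, a difference of 0.093 (SE 0.09, adjusted p = 0.571). The third, 1450236_at, lay below the array medians and leaned the other way, at 4.25, 4.20 and 4.19 against 4.47, 4.49 and 4.32. Its groups did not overlap, but the difference of -0.21 (SE 0.09) did not pass (adjusted p = 0.171). A rise of Foxo3 as large as that of Foxo1 lies outside all 3 intervals, the highest of which ends at 0.53. The probe sets 1434831_a_at and 1434832_at were designed on the same expressed sequence and are not independent readings. At 1450236_at, below the array medians, the size of a difference is approximate.

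Foxo4, an X-linked member, was lower in AID-/- leukaemia at 1 of its 2 probe sets. At 1456753_at the AID-/- arrays stood at 6.87, 6.57 and 6.91 and the AID+/+ arrays at 7.81, 7.68 and 7.33. All 3 AID-/- arrays lay below the lowest AID+/+ array, and the level fell by 0.82 (SE 0.15, adjusted p = 0.00786). Without single arrays the difference ranged from -0.96 to -0.71 with adjusted p up to 0.0339, and it did not pass without variance moderation (adjusted p = 0.0904). The other probe set, 1422149_at, read 5.09, 5.35 and 5.31 against 5.24, 5.36 and 5.52, overlapping groups with a difference of -0.12 (SE 0.11, adjusted p = 0.572). Because Foxo4 lies on the X chromosome, its difference stands beside the split of Xist and Kdm5d, and their part in it was not tested.

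**Figure D2:**
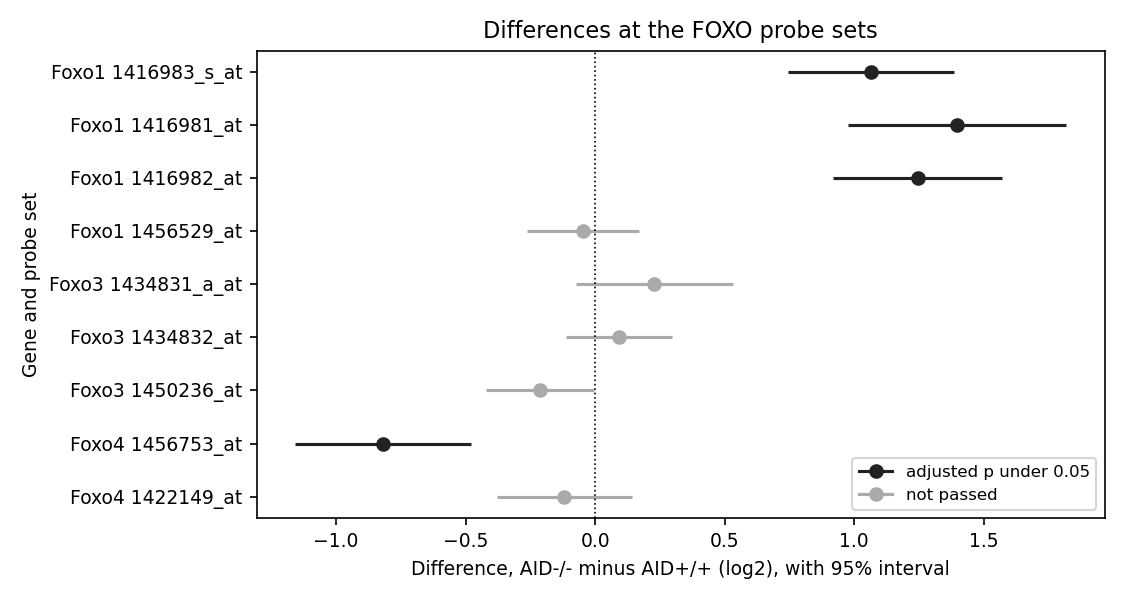
Difference between groups, AID-/- minus AID+/+ (log2), at each FOXO probe set, with its 95% interval from limma as a line and probe sets past an adjusted p of 0.05 in black. The 3 Foxo1 probe sets in black lie between 1.07 and 1.40, Foxo4 1456753_at lies at -0.82, and the other 5 are grey.

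The balance between members was compared on each array. The log2 ratio of Foxo1 to Foxo3, each at its probe set with the highest mean, was 1.87, 2.35 and 2.00 on the AID-/- arrays and 1.11, 1.08 and 1.52 on the AID+/+ arrays. These ratios did not overlap and differed by 0.84 between groups. The ratio of Foxo1 to Foxo4 differed by 1.88 and that of Foxo3 to Foxo4 by 1.05, also without overlap. Foxo1 was higher and Foxo4 lower without overlap, so the lack of overlap in their ratio follows from those values. It is no further result. The ratios to Foxo4 were added beside the planned one of Foxo1 to Foxo3. For each of these 3 pairs the two-sided exact permutation p was 0.1, the smallest that 3 against 3 arrays can give, and 0.1 after Benjamini-Hochberg adjustment, so the design cannot reach 0.05 here. A ratio of probe set signals carries the probes' own affinities, and only its change between groups is meaningful.

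The genes whose profile over the 6 arrays, after removal of the mean, lay closest to each member were found by Euclidean distance in log2 units. Only genes whose mean lay above that of the median probe set were searched. For Foxo1 these were Erg, an ETS factor of blood progenitors, at 0.183, Zfp52 at 0.197 and BC035044 at 0.206. Erg stood at 9.06, 9.64 and 9.54 in AID-/- and 8.43, 8.39 and 8.52 in AID+/+ leukaemia. For Foxo3 they were Abhd13, Kbtbd4 and Tmem29 at 0.136 to 0.162. For Foxo4 they were Tnip2 at 0.161, 5830408C22Rik at 0.179 and Kmt2d, a histone H3 methyltransferase gene, at 0.234.

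The other forkhead genes gave a wider view of the family. Of 34 measured, 3 were higher in AID-/- leukaemia, 1 was lower and 30 did not pass, where 18.5% of 18193 genes were called, 10.1% as higher and 8.42% as lower. Foxj2 was at 7.12, 6.68 and 6.97 against 5.43, 4.77 and 5.08, a difference of 1.83 (SE 0.18, adjusted p = 4.75e-04), while its other probe set differed by -0.010. Foxc1, a regulator of mesoderm development, was at 9.75, 10.19 and 10.65 against 9.06, 8.96 and 9.02, a difference of 1.19 (SE 0.20) that its other probe set shared at 0.91, and whose call was lost without variance moderation (adjusted p = 0.0750). Foxk2 was higher by 0.39 (SE 0.09) at its probe set with the highest mean. Its 5 probe sets differed by -0.16 to 0.40, and the call was lost when they were averaged (0.11, adjusted p = 0.429) and in 4 of the 6 fits without a single array (adjusted p up to 0.0775 without AID+/+ replicate 2, and 0.0605, 0.0664 and 0.0521 without AID-/- replicates 1 and 3 and AID+/+ replicate 1). Foxd2 fell by 1.52 (SE 0.17), while its other probe set differed by -0.077. Foxp1, chosen after its values were seen as a forkhead factor of B-cell progenitors, was at 10.57, 10.93 and 11.01 against 10.63, 10.80 and 10.62 and did not pass (adjusted p = 0.490).

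Upstream of the FOXO proteins, the PI3K-AKT list moved in both directions. Its 24 measured genes comprised 4 higher ones, 4 lower ones and 16 that did not pass, a called share of 33.3% against the 18.5% of all genes. The median difference was 0.016, against -0.032 over all genes. The count of calls moved with single arrays, from 8 to 5 on leaving out any of AID-/- replicates 2 and 3 and AID+/+ replicate 2, to 4 without AID+/+ replicate 1 and to 3 without AID+/+ replicate 3. Over all genes the called share in those fits was, in the same order, 15.5%, 14%, 13.3%, 13.8% and 11.8%.

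Sgk1, the kinase that phosphorylates FOXO proteins beside AKT, showed the largest difference of the list. It stood at 8.25, 9.02 and 8.37 in AID-/- and 4.41, 4.87 and 4.70 in AID+/+ leukaemia, the latter below the array medians. The groups lay far apart, with a difference of 3.89 (SE 0.21, adjusted p = 1.86e-05) whose size is approximate for that reason. Inpp4b, a phosphatase that removes a PI3K lipid product, was at 5.66, 6.68 and 5.55 against 3.20, 3.86 and 3.62, a difference of 2.40 (SE 0.30, adjusted p = 0.00143). Its other probe set, at 3.53 and 3.27, did not pass. Values this low hold little order, so the size of the Inpp4b difference is approximate.

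Mtor, the kinase of both mTOR complexes, fell by 1.29 (SE 0.16, adjusted p = 0.00132), from 11.17, 11.11 and 11.10 in AID+/+ to 9.80, 9.52 and 10.19 in AID-/- leukaemia. Of its other probe sets 1446185_at fell by 1.87 and 1436267_a_at differed by -0.15 without passing. Pik3cd, the catalytic PI3K subunit of lymphocytes, was higher by 0.98 (SE 0.21, adjusted p = 0.0147), a call that ended when AID-/- replicate 3 (adjusted p = 0.0535), AID+/+ replicate 2 (0.0599) or AID+/+ replicate 3 (0.0593) was left out, and without variance moderation (0.118). Of the other Pik3cd probe sets 1422992_s_at, 1422991_at and 1446770_at were higher, by 1.10, 0.92 and 0.40. The probe sets 1443798_at and 1458321_at differed by -0.20 and -0.089 and did not pass. The remaining calls of the list were smaller and are named after their values were seen. Inpp5d was higher by 0.51, and Pik3ca, Pik3r2 and the adaptor gene Pik3ap1 fell by 0.36, 0.48 and 0.92. Each of these 4 calls ended without variance moderation (adjusted p from 0.0521 to 0.174) and in several of the 6 fits without a single array, in 5 for Inpp5d (adjusted p up to 0.0910), 5 for Pik3ca (up to 0.0784), 4 for Pik3r2 (up to 0.0850) and 3 for Pik3ap1 (up to 0.101). The AKT genes measured, Akt1 and Akt2, differed by 0.05 (SE 0.15) and -0.20 (SE 0.14), and the AKT-activating kinase gene Pdpk1 by 0.01 (SE 0.09), none of which passed.

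Of 24 measured genes whose products act on FOXO proteins directly, 1 was higher and 23 did not pass, a called share of 4.17% beside the 18.5% of all genes. An unadjusted p under 0.05 was found for 3 of them, against 5565 of all 18193 genes, and groups did not overlap at 6, against 36.5% of all genes. The called gene was Ywhaq, which encodes a 14-3-3 protein, with means of 12.03 ± 0.12 for the AID-/- and 11.59 ± 0.08 for the AID+/+ arrays (SD, n = 3) and a difference of 0.43 (SE 0.10, adjusted p = 0.0176). The call ended when AID+/+ replicate 1 (adjusted p = 0.0595) or AID+/+ replicate 3 (0.0604) was left out, without variance moderation (0.0607) and with its 8 probe sets averaged (0.27, adjusted p = 0.0639). Mdm2, a ubiquitin ligase, Cdk1, the mitotic kinase, and Stk4, the MST1 kinase, differed by 0.26 (SE 0.09), 0.24 (SE 0.09) and 0.26 (SE 0.12) and did not pass. Stk4 was the exception on averaging its probe sets, at 0.46 with an adjusted p of 0.00903. Its probe sets 1434159_at and 1421107_at were higher on their own, by 0.43 and 0.69 (limma adjusted p = 0.0472 and 0.00764 over probe sets).

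**Figure D3:**
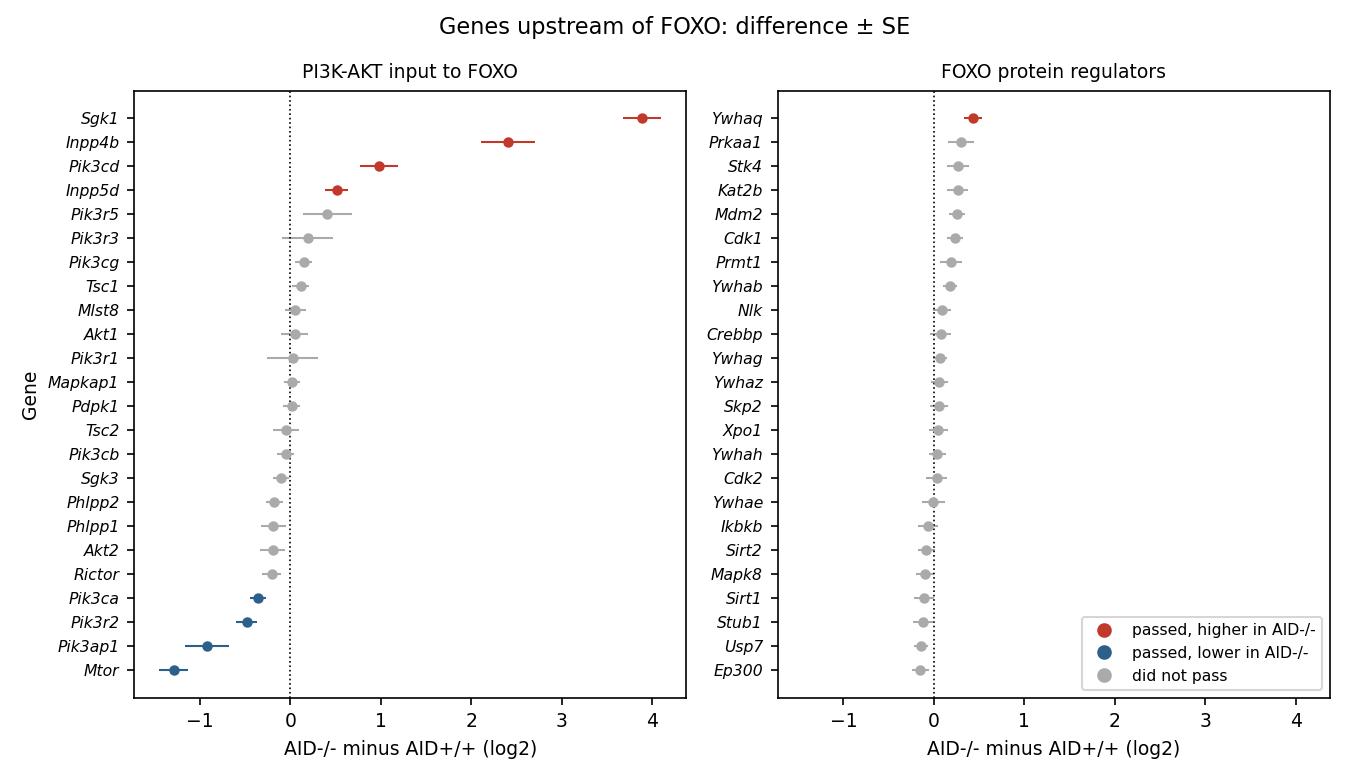
Difference between groups, AID-/- minus AID+/+ (log2), with its SE for the 24 measured PI3K-AKT genes (left) and the 24 measured FOXO regulators (right), 1 point per gene, with red for higher and blue for lower calls. Sgk1 at 3.89 and Inpp4b at 2.40 stand to the right on the left panel, Mtor at -1.29 to the left, and only Ywhaq is coloured on the right panel.

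Known FOXO targets moved in both directions. Over 3 lists 57 were measured, of which 13 were higher in AID-/- leukaemia, 12 were lower and 32 did not pass, a called share of 43.9% beside the 18.5% of all genes. The median difference of all 57 was 0.13, against -0.032 over all genes. The lists also hold Ccnd2, known as repressed by FOXO proteins, so neither the split nor the median gives a direction of FOXO activity. Without variance moderation 13 of these 25 calls were lost, those on Klf2, Il7r, Cxcr4, Ccng2, Ccnd2, Bcl2l11, Gadd45a, Plk2, Irs2, Sesn1, Sesn2, Atg12 and Depp1, with adjusted p from 0.0526 for Ccng2 to 0.151 for Gadd45a. Lists of well studied genes need not resemble the average gene, and nothing particular to FOXO is read from these shares.

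The 14 measured targets in lymphocytes comprised 4 higher, 5 lower and 5 that did not pass, where 10.1% of all genes were called higher and 8.42% lower. The count of 9 calls ranged from 8 to 10 without single arrays. The V(D)J recombinase genes were among the higher ones, with Rag1 at 9.41, 10.23 and 9.64 against 5.96, 6.28 and 5.81 and Rag2 at 7.96, 8.57 and 8.50 against 5.24, 5.85 and 5.62. Blnk, the adaptor of the pre-B cell receptor, stood at 12.33, 12.68 and 12.61 against 10.42, 10.60 and 10.33. S1pr1, the sphingosine phosphate receptor that guides lymphocyte exit from tissues, was at 6.97, 8.15 and 7.86 against 4.72, 4.47 and 4.70, a difference of 3.03 (SE 0.27, adjusted p = 2.73e-04) whose size is approximate, since the AID+/+ values lay below the array medians. AID-/- replicate 1 was the lowest array of its group for all 4 genes, as it was for Foxo1. The same held for the lower gene Il7r and for Ebf1, Cd79a, Syk and Btla, which did not pass. It did not hold for Bach2, Klf2, Ikzf1, Cxcr4 and Ccr7. This order is therefore not particular to the higher genes.

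The lower lymphocyte targets included Klf2, a factor of lymphocyte quiescence that itself is known to activate S1pr1. It stood at 7.37, 5.53 and 7.37 in AID-/- and 9.34, 8.80 and 9.02 in AID+/+ leukaemia, and fell by 2.30 (SE 0.46, adjusted p = 0.0108). AID-/- replicate 2 lay far below the other AID-/- arrays, and the difference without it was -1.68. Bach2, a repressor gene, fell by 1.77 (SE 0.19) at its probe set with the highest mean, and the others differed by -1.48 and -1.44. Ikzf1, Cxcr4 and Il7r, named after their values were seen, fell by 0.97, 0.50 and 0.49. Il7r, the interleukin-7 receptor chain, was at 11.03, 11.26 and 11.39 against 11.75, 11.85 and 11.54, groups that lay close without overlap (SE 0.12, adjusted p = 0.0288). The Il7r call ended in 4 of the 6 fits with an array left out, those lacking AID-/- replicate 1 (adjusted p = 0.0661), AID-/- replicate 2 (0.0553), AID+/+ replicate 1 (0.0881) or AID+/+ replicate 2 (0.0993), and with the replicate block (0.0652). Ikzf1 and Cxcr4 passed in all 6 of these fits.

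**Figure D4:**
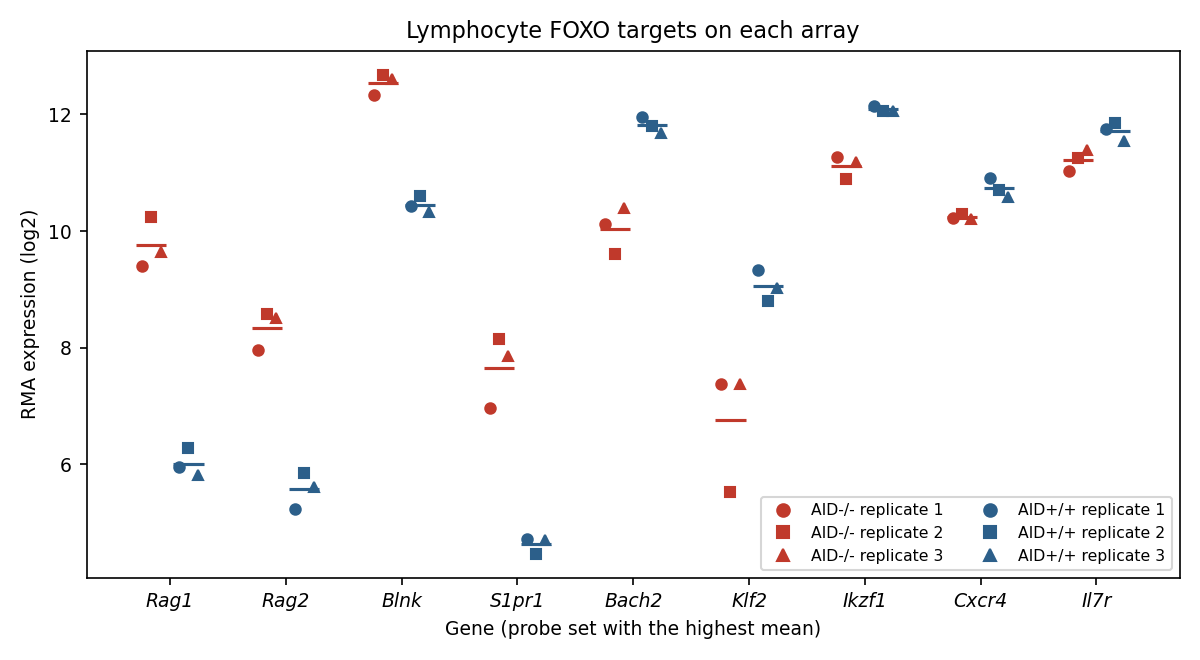
RMA expression (log2) on each array for the 9 lymphocyte targets that passed, with AID-/- arrays in red, AID+/+ arrays in blue, a marker shape for each replicate number and a bar at each group mean. Rag1, Rag2, Blnk and S1pr1 lie higher on all 3 AID-/- arrays, and Bach2, Klf2, Ikzf1, Cxcr4 and Il7r lie lower on all 3.

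Targets in cell cycle arrest and death had 6 of 18 higher, 3 lower and 9 not passing, a share of 50% called beside the 18.5% of all genes. The count of 9 ranged from 7 to 11 without single arrays. The CDK inhibitor genes split: Cdkn1a, which is also a p53 target, stood at 9.45, 9.46 and 10.10 against 7.05, 6.87 and 6.83, and Cdkn2b at 6.54, 6.70 and 5.74 against 4.24, 4.32 and 4.09, a difference of 2.11 (SE 0.23, adjusted p = 7.65e-04). The AID+/+ values of Cdkn2b lay below the array medians, so this size is approximate. Cdkn1b, which encodes p27 and is a classic FOXO target, fell by 0.84 (SE 0.10, adjusted p = 0.00127), from 8.73, 8.47 and 8.68 to 7.80, 7.69 and 7.88, at 1 of its 2 probe sets. Ccng2, which encodes cyclin G2, an inhibitor of the cycle, fell by 1.16 (SE 0.17, adjusted p = 0.00261), from 11.03, 11.18 and 11.04 to 9.86, 9.60 and 10.30, and the difference at its other probe set was -1.28. Ccnd2, which encodes cyclin D2 and is known as repressed by FOXO proteins, fell at each of its 7 probe sets, with differences of -2.49 to -2.24. Its AID-/- arrays were uneven at the probe set with the highest mean, at 8.44, 10.39 and 9.90, against 11.91, 11.76 and 12.07. Ccnd1, the cyclin D1 gene of the same list, was named after its values were seen. The Ccnd1 difference was 0.05 (SE 0.11, limma adjusted p = 0.810) and did not pass.

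Of the death genes in that list, Pmaip1, which encodes NOXA, was higher by 1.68 (SE 0.15), at 8.25, 7.70 and 7.69 against 6.22, 6.11 and 6.27. Bcl2l11, which encodes BIM, was named after its values were seen and was at 11.19, 11.62 and 11.44 against 10.80, 10.33 and 10.94, a difference of 0.73 (SE 0.18, adjusted p = 0.0240). This call ended on leaving out AID-/- replicate 2 (adjusted p = 0.0605), AID-/- replicate 3 (0.0699), AID+/+ replicate 1 (0.0545) or AID+/+ replicate 2 (0.0544), and with the replicate block (0.0521). Bbc3, Fasl and Tnfsf10, which encode PUMA, FAS ligand and TRAIL, differed by 0.13 (SE 0.16), 0.02 (SE 0.09) and 0.49 (SE 0.29) and did not pass. Gadd45a and Plk2 were the other higher genes, at 0.90 and 0.84. With its 2 probe sets averaged, the Plk2 difference was smaller, at 0.38 (limma adjusted p = 0.0244). The Gadd45a call held without AID-/- replicate 1 and ended in the other 5 fits with an array left out, with adjusted p of 0.0629 and 0.0811 on leaving out AID-/- replicates 2 and 3 and of 0.0554, 0.0744 and 0.0982 on leaving out AID+/+ replicates 1, 2 and 3, while Plk2 passed in all 6.

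Targets in stress defence, autophagy and metabolism had 3 of 25 higher, 4 lower and 18 not passing, a share of 28% beside the 18.5% of all genes. The count was 7 genes with all arrays, 4 without AID-/- replicate 3 or AID+/+ replicate 1 and 3 without AID+/+ replicate 2 or 3. Over all genes the called share in those 4 fits was 14%, 13.8%, 13.3% and 11.8%. Ppargc1a, a coactivator of mitochondrial genes and FOXO1 partner, was at 6.27, 5.98 and 6.36 against 3.28, 2.96 and 3.50, a difference of 2.96 (SE 0.16, adjusted p = 1.78e-05), and all 5 of its probe sets were higher, by 2.07 to 2.96. The AID+/+ values lay well below the array medians, so the size is approximate. Irs2, the insulin receptor substrate that FOXO proteins activate, was at 7.00, 8.12 and 7.53 against 6.63, 6.14 and 6.49, a difference of 1.13 (SE 0.27, adjusted p = 0.0217) that ended when AID-/- replicate 3 (adjusted p = 0.0600), AID+/+ replicate 2 (0.0811) or AID+/+ replicate 3 (0.0653) was left out. The sestrin genes, which dampen mTOR signalling, split, with Sesn1 higher by 0.59 (SE 0.12) and Sesn2 lower, having fallen by 0.77 (SE 0.15). Of the other Sesn1 probe sets 1454699_at was higher by 0.56, while 1438931_s_at and 1444376_at differed by 0.30 and 0.23 and did not pass. The other Sesn2 probe set fell by 0.93. Sesn3 differed by 0.65 (SE 0.20) and did not pass (adjusted p = 0.0609). The antioxidant genes Sod2, Cat and Prdx3 differed by 0.15, 0.32 and 0.15, and none passed.

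**Figure D5:**
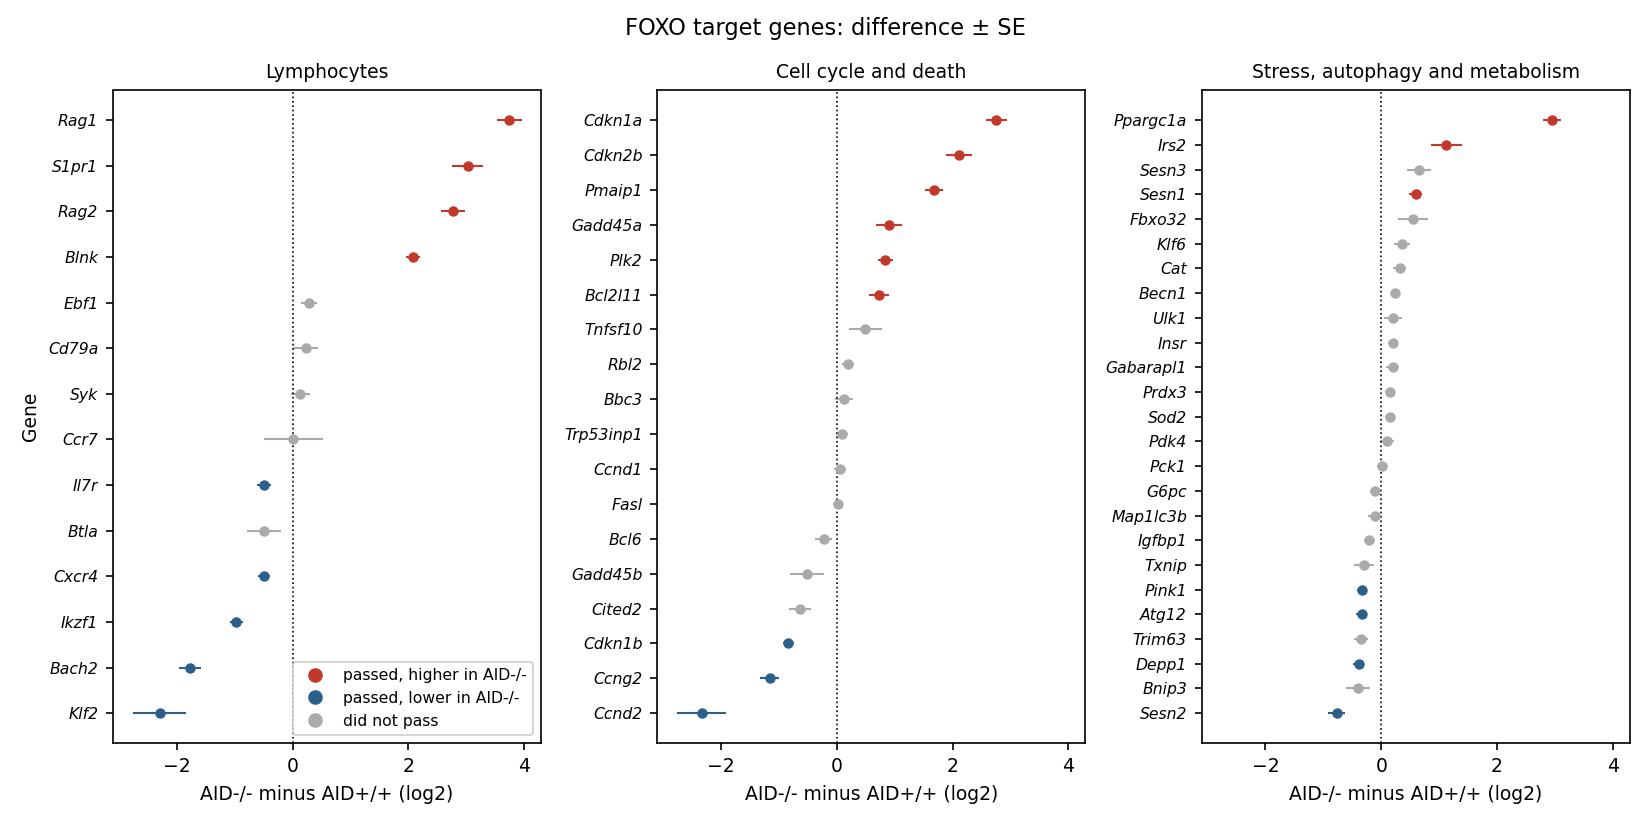
Difference between groups, AID-/- minus AID+/+ (log2), with its SE for the measured FOXO targets of each list, 1 point per gene, with red for higher and blue for lower calls and grey for genes that did not pass. Each panel holds calls on both sides of 0, from Rag1 at 3.74 to Klf2 at -2.30 in lymphocytes, from Cdkn1a at 2.75 to Ccnd2 at -2.34 in cell cycle and death, and from Ppargc1a at 2.96 to Sesn2 at -0.77 in the third.

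The same motifs were searched in the 250 bases before the start of these targets. Of the targets in lymphocytes 12 genes with 15 windows were in the table and 0 windows held GTAAACA or CAAAACA on either strand, a number of windows too small to set against 3.17% and 5.56%. Of 19 windows of the cell cycle and death targets 2 (10.5%) held GTAAACA and 1 (5.26%) held CAAAACA, and of 22 windows of the stress targets 2 (9.09%) and 3 (13.6%) did. These windows are likewise too few to set against 3.17% and 5.56%. The GTAAACA matches lay in windows of Bbc3, Bcl2l11, Trim63 and Txnip, which the rule did not name. Of the genes named by rule in the 3 lists, S1pr1, Ccnd2 and Pmaip1 had no window to search. Among the others Ccng2 and Irs2 were the ones with a match, and their windows are shown for that reason. CAAAACA or its reverse complement TGTTTTG is in capitals, at chr5:93267323-93267572 (plus strand) for Ccng2 and chr8:11008930-11009179 (minus strand) for Irs2.
Ccng2: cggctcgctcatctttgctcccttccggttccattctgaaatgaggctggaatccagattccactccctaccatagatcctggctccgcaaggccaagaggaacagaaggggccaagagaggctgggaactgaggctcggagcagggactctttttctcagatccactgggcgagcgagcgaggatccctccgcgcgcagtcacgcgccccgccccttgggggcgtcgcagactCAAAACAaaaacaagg
Irs2: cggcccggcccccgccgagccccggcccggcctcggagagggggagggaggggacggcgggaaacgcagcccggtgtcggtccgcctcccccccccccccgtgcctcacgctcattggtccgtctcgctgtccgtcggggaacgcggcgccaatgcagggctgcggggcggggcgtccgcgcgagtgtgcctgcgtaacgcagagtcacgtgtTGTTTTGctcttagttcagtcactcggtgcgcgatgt
The match begins 16 bases before the start of Ccng2 and 37 bases before that of Irs2. These genes moved in opposite directions, Ccng2 lower and Irs2 higher in AID-/- leukaemia. A match is a description of letters and not a bound site.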

How the data were processed

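Affymetrix 3' expression arrays of 6 leukaemia RNA samples were used. The authors deposited log2 expression values, 1 column per array, and RMA and Partek are named, with no versions, in the submitters' processing notes. Scanner files and detection calls were not used here. The 64 control probe sets among the 45101 were dropped. Symbols came from the platform annotation (34945 probe sets with 1 symbol, 932 with several, 9160 not named) and were updated by Entrez identifier to RefSeq GRCm38.p6 (34741 matched). For gene-level tests the probe set of a gene with the highest mean on the 6 arrays was kept (18193 genes).

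Differences, AID-/- minus AID+/+, came from a limma 3.58.1 fit under R 4.3.3 (lmFit and eBayes with a group term and every probe set kept), two-sided, with Benjamini-Hochberg adjustment over all 45037 probe sets for member probe sets and over all genes for list genes, at 0.05. The fit was tested on simulated data. Lists were written from general knowledge. The members and lists were chosen with earlier results of these data known. Named list genes were those past 0.05 with a difference of at least 1 and, in any case, the 4 with the smallest p. Same-numbered replicates did not deviate together (correlations -0.045, -0.072 and 0.031), so they were not paired. The alternatives tried were an intensity trend, a dim probe set filter, median centring, quantile normalization, no moderation, array weights, the replicate block, averaged probe sets and leaving out each array. The number of arrays limits the precision.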

Additional observations from a re-analysis of the deposited data

How the results depend on the processing

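The direction and call of Foxo1 held under all 14 alternatives tried, at 0.92 to 1.22 for the gene, and Foxo3 passed under none. Without variance moderation Foxo4 kept its difference of -0.82 and did not pass (adjusted p = 0.0731 over genes), 1 of the 3 member genes and 1 of the 9 member probe sets were called in place of 2 and 4, and the lists fell to 3 called for PI3K-AKT genes, 0 for FOXO regulators (5 at an unadjusted p under 0.05), 4 for cell cycle and death targets, 6 for lymphocyte targets, 2 for stress targets and 2 for other forkhead genes. Over all genes that model called 1635 in place of 3371. With the replicate block, 0 FOXO regulators (4 at an unadjusted p under 0.05) and 4 stress targets were called, and neither Foxo1 (adjusted p = 0.00249) nor Foxo4 (adjusted p = 0.0179) lost its call, while the calls on Foxk2 and Ywhaq ended (adjusted p = 0.0526 and 0.0558). Over all genes 2696 (14.8%) were called with the replicate block. With averaged probe sets 2 FOXO regulators were called, with Stk4 among them and Ywhaq not, beside 3383 of all genes (18.6%). Without single arrays, calls ranged from 3 to 6 for PI3K-AKT genes, 0 to 1 for FOXO regulators (1 to 5 at an unadjusted p under 0.05) and 3 to 8 for stress targets. Over all genes 2142 to 3214 were called in those fits. The difference at Foxo1 1456529_at, which did not pass, was -0.046 with all arrays, ranged from -0.079 to 0.0047 without single arrays and turned sign without AID+/+ replicate 3. Of 28 named list genes 17 kept direction and side of the threshold under every alternative, 10 lost the call under at least 1 and 0 changed direction. Causes were not tested.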

Other observations

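A further probe set, 1444226_at, is annotated to both Foxo3 and Gm38485 and was therefore no member. It stood at 4.58, 4.84 and 4.51 in AID-/- and 3.85, 4.11 and 4.33 in AID+/+ leukaemia, all below the array medians, with a difference of 0.55 (SE 0.14, limma adjusted p = 0.0371). Its direction is opposite to that of the Foxo3 probe set 1450236_at, which also lay below the medians. The brighter Foxo3 probe sets 1434831_a_at and 1434832_at leaned the same way as 1444226_at, by 0.23 and 0.093, without passing. Which of its annotated genes 1444226_at reads was not tested.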
